A study of Mus musculus with 8 samples.

Results

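RNA of mouse AtT-20 cells was compared between the second day of tamoxifen and its start: 2 libraries taken after 48 h against 2 taken at 0 h, 4 of the 8 libraries of the series. AtT-20 is a pituitary tumour line of corticotrope type, the cell that makes adrenocorticotropic hormone from the precursor Pomc. Every library, those at 0 h included, came from cells carrying ER-Pax7, and the series concerns DNA demethylation by Pax7. The other 4 libraries, 2 after 24 h and 2 after 72 h, lent their spread to the fit. Of the 55401 genes in the files, 9568 averaged 1 or more in signal across the 4 libraries of 0 h and 48 h and were tested together. Another 8315 genes with a mean from 0.1 to under 1, called weakly expressed here, were kept apart, and the remaining 37518 lay under 0.1, of which 19699 were at 0 in all 4 libraries. The signal was read as coverage by reads, averaged over a gene's merged exons and normalized by the authors. How it was scaled was not given, so its use as a level per length between genes is an assumption.

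Pax7 is a pioneer transcription factor: it can bind its sites in closed chromatin, and in the pituitary it sets apart the melanotrope from the corticotrope. Both cells make Pomc and store its peptides in dense-core granules. Melanotropes carry the convertase Pcsk2, which cuts the precursor further, and the dopamine receptor Drd2. In ER-Pax7 the factor is joined to a hormone-binding part of the estrogen receptor, so that the fusion becomes active when tamoxifen is given. Libraries of AtT-20 cells given vehicle, or of cells without ER-Pax7, were not used here, so what the fusion, the drug and the hours in culture each contribute cannot be told apart. The labels do not say that the replicates were separate cultures, and p-values therefore measure only the spread between these libraries. With 2 libraries against 2, an exact permutation test of a single gene cannot reach 0.05; the tests below come from limma fits across genes of all 8 libraries, 1 fit for the tested genes and another for the weakly expressed genes, each with its own adjustment of p-values. In bulk RNA, fewer cells that express a gene and less RNA per cell cannot be told apart.

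The summed signal was 164236 and 174285 in the 0 h libraries and 174307 and 164587 in the 48 h libraries. Across tested genes, which are not independent replicates, the 0 h libraries correlated at r = 0.994 with each other. The 48 h libraries correlated at 0.985, and each lay nearer a library of another time: replicate 1 was nearest 72 h replicate 1 at 0.989, and replicate 2 nearest 24 h replicate 2 at 0.995. On chromosome 12 beside the 7SL RNA genes, Nemf stood at 503 in 48 h replicate 1 and 69.9 in replicate 2, and Pole2 at 0.728 and 69.1; neither gene was called. Nemf and Pole2 held nearly the same value in each 0 h library, 70.6 and 69.9 in replicate 1 and 314.2 and 313.6 in replicate 2. Why was not tested. The Pax7 locus went from 12.9 and 13.3 to 14.2 and 14.4 without a call (limma adjusted p = 0.645), and Esr1, the estrogen receptor gene, from 15.96 and 16.48 to 16.8 and 17.4 (limma adjusted p = 0.741); both may hold reads of the introduced fusion. Of the genes that define a corticotrope, Pomc was high in every library, at 634 and 623 against 548 and 539, and Tbx19, the T-box factor of Pomc cells, stood at 18.7 and 17.7 against 20.5 and 19.9. Neither was called (limma adjusted p = 0.374 and 0.630). Of 12 myogenic, 9 fibroblast, 9 immune and 7 endothelial marker genes, 0 had a mean of 1. Their summed signals were 1.43 to 1.47, 0.417 to 0.540, 0.712 to 0.721 and 0.289 to 0.292 at 0 h, and 1.41 to 1.52, 0.244 to 0.304, 0.680 to 0.760 and 0.309 to 0.364 at 48 h. Drd2 was listed at 0 in all 8 libraries.

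On the second day 59 of the 9568 tested genes differed from 0 h, 0.617% of those tested (limma, Benjamini-Hochberg adjusted p under 0.05). They were 31 higher (0.324%) and 28 lower (0.293%), and 1014 genes had an unadjusted p under 0.05. The changes were small. Ratios of means ran from 1.33 to 3.11 among the higher genes, with 4 of 31 at 2-fold or more, and from 1.33 to 2.84 among the lower, with 2 of 28. The called genes included the imprinted pair Mest and Copg2, the vesicle GTPase gene Rab27a and enzymes of detoxification on the higher side. The lower side held the monoamine enzyme gene Ddc, ion channel subunits, lysosomal genes and receptors. The calls rest on few libraries. With either 0 h library left out 3 genes were called, Mest, Copg2 and Akr1c14, and these alone kept their calls with any 1 of the 8 libraries left out. Without 48 h replicate 1 there were 13 calls, without 48 h replicate 2 there were 8, and with either 72 h library left out 42. Rgs4, Mfge8, Pex5l, Gm37459 and Ddc lost theirs only when a 0 h library was left out. Of the other 51 genes, 28 kept their call only when a 24 h library was left out, Rab27a and Ahsg among them. The filter took the mean over both groups, and 13 of the 59 genes, Rgs4 and Akr1c14 among them, had a mean under 1 in 1 group and passed only through the group where they were high.

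**Figure D1:**
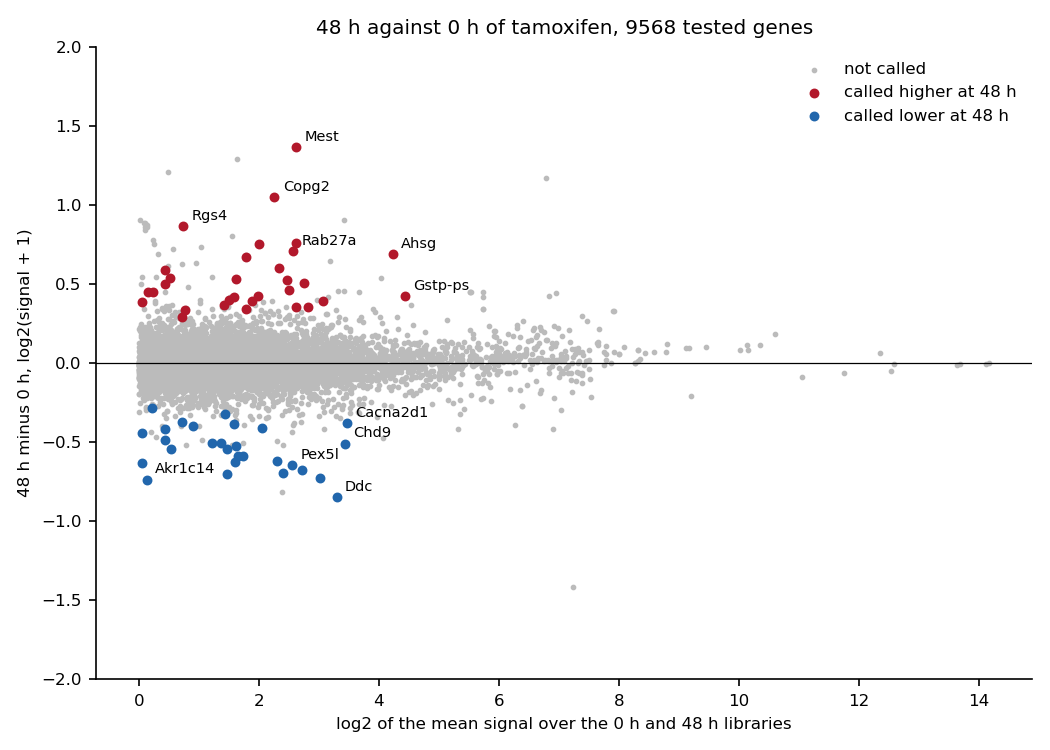
Change from 0 h to 48 h on the log2(signal + 1) scale (vertical) against the log2 mean signal of the 4 libraries (horizontal), 1 point per tested gene, with the 31 higher calls in red and the 28 lower calls in blue. The called genes lie between 1.37 for Mest and -0.85 for Ddc; 27 uncalled genes fall outside the vertical range and are not drawn, and some uncalled genes within it moved further than called ones because their libraries differed more.

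**Figure D2:**
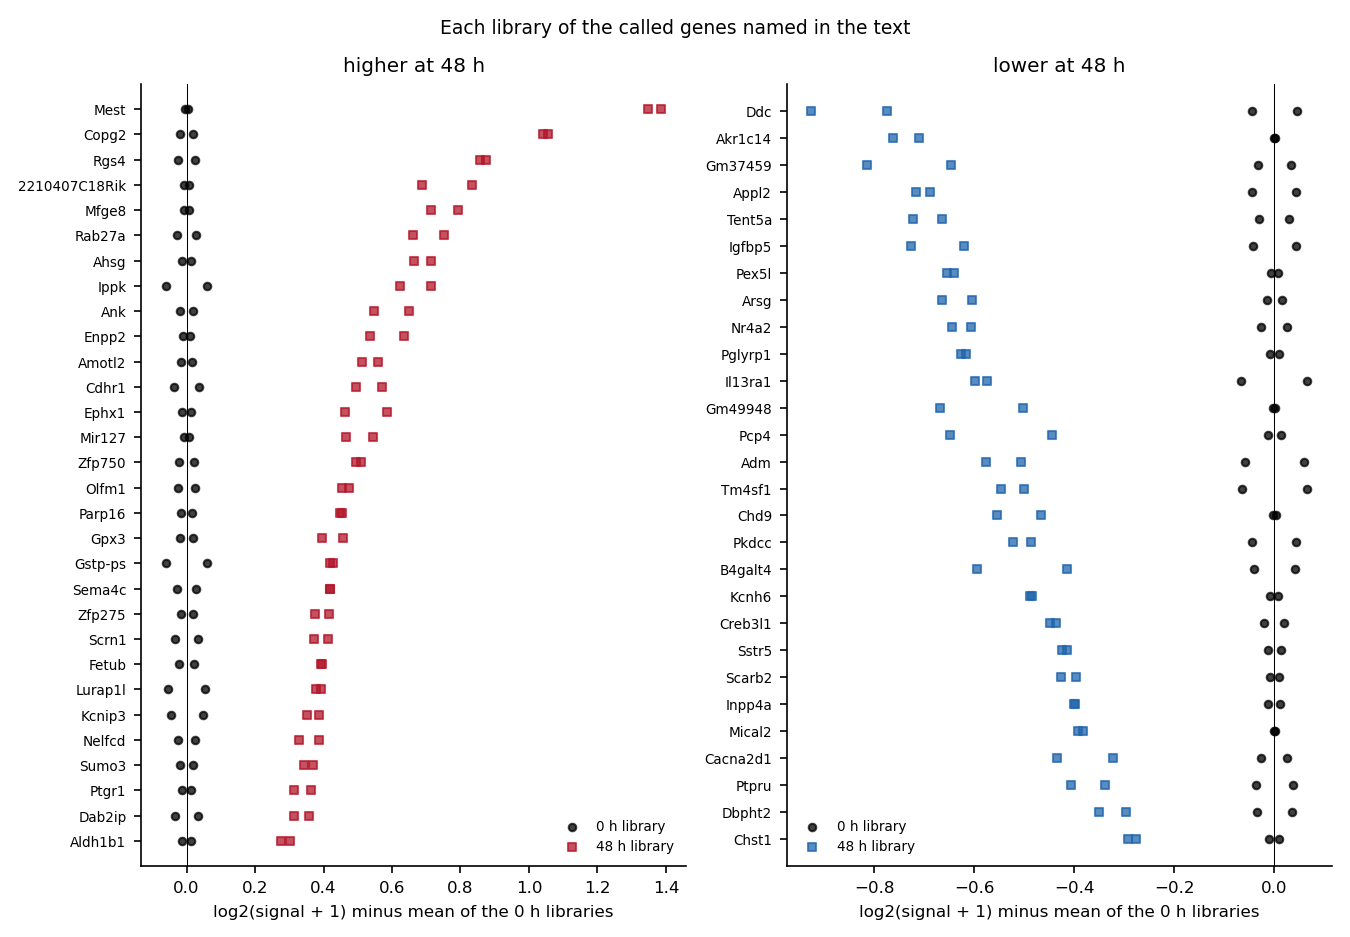
Each library of 58 called genes, those named in the text, as log2(signal + 1) minus the mean of the 0 h libraries, with 0 h as black circles and 48 h as coloured squares, higher genes left and lower genes right. In every gene drawn the 48 h libraries lie apart from both 0 h libraries, which the calls select for.

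On the log2(signal + 1) scale the imprinted gene Mest and its neighbour Copg2 had the largest rises of the tested genes that were called; by ratio of means Rgs4, at 2.75-fold, lay between them. Mest, which codes for a putative hydrolase and is expressed from the paternal copy (ENSMUSG00000051855.15, chromosome 6, 30723547 to 30748465, GRCm38), stood at 2.98 and 3.005 in the 0 h libraries and 9.16 and 9.44 in the 48 h libraries. The rise was 3.11-fold (log2 1.37, SE 0.05, limma adjusted p = 0.000245). Copg2, a subunit of the COPI coat that returns vesicles from the Golgi (chromosome 6, 30747554 to 30896794, opposite strand), went from 2.82 and 2.72 to 6.83 and 6.75, 2.45-fold (limma adjusted p = 0.000305). The 2 genes converge and overlap by 912 exonic bases (23.1% of those in Mest, 17.8% of those in Copg2), so part of the reads is counted for both; whether strand was used was not given in the sources used here. Klf14, an imprinted gene beyond Copg2 (chromosome 6, 30956023 to 30959078), had 2.58 and 2.34 against 3.03 and 3.07 and was not called (limma adjusted p = 0.151). Of 13 tested imprinted genes 11 were higher and 2 lower, with 2 called and a median log2 change of 0.11. Of all 9568 tested genes 4975 were higher, 52.0%, with a median of 0.00 and 10.6% at an unadjusted p under 0.05, and the counts of each list below stand beside these. The largest of the uncalled members were Nap1l5, a nucleosome assembly family gene, at 4.30 and 4.34 against 5.71 and 5.68, and Plagl1, a zinc finger gene, at 7.78 and 7.69 against 6.42 and 6.17 (limma adjusted p = 0.0944 and 0.480).

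A second imprinted region held the microRNA gene Mir127 (chromosome 12), called higher from 5.41 and 5.34 to 8.30 and 7.80, 1.498-fold (limma adjusted p = 0.0336). Its annotated hairpin lies wholly inside the exons of Rtl1, an imprinted gene of retrotransposon origin on the other strand. Rtl1 had 4.97 and 4.79 against 6.07 and 6.32 and was not called (limma adjusted p = 0.0958). Rian, a noncoding RNA gene of the same region and strand as the microRNA, had 0.265 and 0.181 against 0.212 and 0.185, and Meg3, another, stayed under 0.04 in these libraries. The signal over Mir127 may hold reads of both strands, and mature microRNA was not measured. The 2 mature arms from RefSeq (GRCm38.p6) are shown because they tell which product the label stands for; capitals mark the seed, bases 2 to 8, which differs between the arms.
mmu-miR-127-5p: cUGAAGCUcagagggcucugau
mmu-miR-127-3p: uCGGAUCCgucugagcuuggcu

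Of the secretory pathway, Rab27a rose and, among weakly expressed genes, Sytl2 and Sv2c, while the granule proteins Chga and Chgb were lower without passing the test. Rab27a, the small GTPase that tethers secretory vesicles under the plasma membrane (chromosome 9), went from 4.36 and 4.16 to 7.85 and 7.32, 1.78-fold (log2 0.71, SE 0.10, limma adjusted p = 0.0336). Sytl2, a synaptotagmin-like protein that binds Rab27a, belonged to the weakly expressed genes and rose from 0.235 and 0.288 to 1.03 and 1.03, 3.94-fold (limma adjusted p = 0.00414). Sv2c, a vesicle membrane protein, rose from 0.415 and 0.373 to 0.881 and 0.971 (2.35-fold, limma adjusted p = 0.0193). Another Rab27a partner, Sytl4 or granuphilin, had 4.21 and 4.05 against 3.08 and 3.07 and was not called (limma adjusted p = 0.0698). The paralog Rab27b, weakly expressed, had 0.348 and 0.246 against 0.234 and 0.105 (limma adjusted p = 0.515). Chromogranin A, a main granule protein coded by Chga, stood at 137 in both 0 h libraries and at 104 and 101 after 48 h, and Chgb had 87.7 and 87.3 against 66.5 and 66.1; both gave a limma adjusted p of 0.0539. Of the 24 tested granule and exocytosis genes 10 were higher and 14 lower (median -0.07), 1 was called, and at an unadjusted p under 0.05 there were 3 higher and 9 lower. The 4 weakly expressed members of that list gave 0 calls. Sytl2 and Sv2c were outside the list and are placed here by known role. Scrn1, a secernin known for its part in exocytosis, was also outside that list and rose from 3.14 and 2.94 to 4.23 and 4.38 (limma adjusted p = 0.0336).

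Of the 6 melanotrope markers 3 were tested, with 0 called, and 2 belonged to the weakly expressed genes, Pcsk2 and Oacyl, both called higher. The list was chosen with earlier results of these data known. Among all 8315 weakly expressed genes 0.229% were called higher. Pcsk2, the prohormone convertase of melanotropes (chromosome 2, 143546156 to 143816285), went from 0.325 and 0.294 to 0.802 and 0.710. The rise was 2.44-fold (log2 1.06 on the log2(signal + 0.1) scale, SE 0.10, limma adjusted p = 0.0106). Pcsk2os2, an antisense gene wholly within the span of Pcsk2, rose from 0.180 and 0.112 to 0.385 and 0.458 (limma adjusted p = 0.0489). Only 2.87% of its exonic bases lie in exons of Pcsk2 and the rest in its introns, where reads of the pair cannot be told apart without strand. Oacyl, an acyltransferase-like gene on the melanotrope list, went from 0.0129 and 0.0171 to 0.438 and 0.483 (limma adjusted p = 0.00414). It was nearly silent at 0 h, and its ratio of means, 30.7-fold, rests on that low base. Oacyl reached the minimum mean of 0.1 only through its 48 h libraries. Pkib and Megf11, the other tested members beside Pax7, had 1.26 and 1.40 against 1.36 and 1.51, and 4.58 and 4.67 against 4.87 and 4.20 (limma adjusted p = 0.869 and 0.955). Among 8 tested prohormone processing genes, 7 were higher and 1 lower (median 0.05) with 0 called. Pcsk1, the corticotrope convertase, had 17.8 and 19.7 against 18.3 and 19.1 (limma adjusted p = 0.9995), and Pam, which amidates peptide ends, 7.73 and 7.17 against 8.50 and 9.25 (limma adjusted p = 0.266).

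Corticotrope genes gave 1 call among 8 tested, with 4 higher and 4 lower, and 3 at an unadjusted p under 0.05, all lower. Nr4a2, an orphan nuclear receptor of the Nur77 family that acts on the Pomc promoter downstream of hypothalamic hormone, fell from 3.98 and 3.80 to 2.21 and 2.13, 1.79-fold lower (log2 -0.63, SE 0.06, limma adjusted p = 0.00738). Nr3c1, the glucocorticoid receptor, had 5.07 and 4.93 against 3.96 and 3.85 (limma adjusted p = 0.168), and Neurod1, the bHLH factor of corticotropes, 4.28 and 4.27 against 4.55 and 4.75 (limma adjusted p = 0.657). Sstr5, a somatostatin receptor that restrains hormone release, fell from 1.71 and 1.66 to 1.02 and 1.003 (1.67-fold lower, limma adjusted p = 0.0286). Among other pituitary lineages Gata2, a factor of thyrotropes and gonadotropes, was the 1 tested marker, at 1.80 and 1.82 against 1.23 and 1.40 (limma adjusted p = 0.220). The summed signal of that list was 2.08 to 2.12 at 0 h and 1.49 to 1.66 at 48 h, and its part in the results was not tested.

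Ddc showed the largest fall on the log2(signal + 1) scale of the tested genes that were called; by ratio of means Akr1c14 fell further. It codes for the enzyme of the last step to dopamine and to serotonin (ENSMUSG00000020182.16, chromosome 11, 11814101 to 11898144). Its signal was 13.3 and 12.5 in the 0 h libraries and 7.12 and 6.31 in the 48 h libraries. The mean after 48 h was 1.92-fold lower (log2 -0.85, SE 0.06, limma adjusted p = 0.00332). The other 4 tested genes of monoamine synthesis and breakdown were not called; Qdpr, which regenerates a cofactor of the hydroxylases, had 8.37 and 7.90 against 6.74 and 7.22 (limma adjusted p = 0.286). Gch1, the first enzyme of cofactor synthesis, had 1.89 and 2.10 against 2.23 and 1.97. The 250 bases before the RefSeq start of Ddc (GRCm38.p6, minus strand) are shown as those of this furthest lower gene. Of 7 motifs searched on both strands they held 1, the Nr4a monomer site AAAGGTCA, which reads TGACCTTT on the other strand, in capitals.
Ddc upstream window, chr11:11898145-11898394: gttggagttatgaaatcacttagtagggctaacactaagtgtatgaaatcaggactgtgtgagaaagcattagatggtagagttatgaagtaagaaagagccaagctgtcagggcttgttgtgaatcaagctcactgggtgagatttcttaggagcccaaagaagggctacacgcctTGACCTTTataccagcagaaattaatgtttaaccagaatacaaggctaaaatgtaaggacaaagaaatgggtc
That motif occurred in the 250 bases before a start of 1.55% of 27025 mouse genes. Among called genes with a window it was found in 2 of 23 lower genes, Ddc and Inpp4a, in 0 of 25 higher genes and in 0 of 26 weakly expressed ones. The Pax homeodomain palindrome, TAAT and ATTA 2 bases apart (0.448% of windows), and the estrogen response element, GGTCA and TGACC 3 bases apart (0.0666%), were in 0 windows of called genes. The T-box site TCACACC (3.84%) was in 1 higher and 2 lower genes, the cAMP response element TGACGTCA (1.77%) likewise in 1 and 2, and the shorter homeodomain site TAATCA (8.33%) in 0 and 1, each in 0 weakly expressed ones. The E-box CAGATG (16.3%) was in 5 higher, 0 lower and 5 weakly expressed genes. The T-box site and the cAMP response element gave like counts, and whether Nr4a2 bears on Ddc was not tested. Nr4a1 and Nr4a3, of the same family as Nr4a2, were weakly expressed and not called. Nr4a1 had 0.575 and 0.372 against 0.493 and 0.426, and Nr4a3 0.148 and 0.148 against 0.205 and 0.245 (limma adjusted p = 0.991 and 0.467). A match describes the letters of this window and is no measure of binding.

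The called genes of electrical excitability were lower, with Kcnip3 the exception. Pex5l, an auxiliary protein of the HCN pacemaker channels (chromosome 3), went from 7.35 and 7.43 to 4.33 and 4.38, 1.70-fold lower (log2 -0.65, SE 0.04, limma adjusted p = 0.00255). Kcnh6, a potassium channel of the ERG type, went from 1.75 and 1.72 to 0.955 and 0.950 (1.82-fold lower, limma adjusted p = 0.00834). Cacna2d1, an auxiliary subunit of voltage-gated calcium channels, went from 12.9 and 12.4 to 9.08 and 9.89 (1.33-fold lower, limma adjusted p = 0.0463). In all 3 genes replicates lay close and no 48 h library reached a 0 h library, which a call selects for and which adds no support. These were 3 of 10 tested channel and pacemaker genes, of which 8 were lower and 2 higher (median -0.15). Of all tested genes 0.617% were called, and this list was chosen with earlier results of these data known. Among weakly expressed genes the sodium channel subunit Scn2b fell from 0.663 and 0.654 to 0.347 and 0.334 (limma adjusted p = 0.0343), and all its exonic bases lie in the span of another gene. Pcp4, a small calmodulin-binding protein, fell from 3.49 and 3.41 to 2.27 and 1.84 (limma adjusted p = 0.0263), together with Gm49948, whose exons lie wholly in those of Pcp4 and Igsf5. Gm37459, which shares 340 exonic bases with Pex5l and lies mostly within its span, fell from 10.6 and 10.0 to 5.42 and 6.21 (limma adjusted p = 0.00778). Kcnip3, a calcium sensor that binds potassium channels and DNA, rose from 2.31 and 2.10 to 3.08 and 3.18 (limma adjusted p = 0.0336).

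Signalling genes changed in both directions. Rgs4, which speeds the shut-off of Gi and Gq proteins (chromosome 1, 169741477 to 169747642), rose from 0.920 and 0.853 to 2.42 and 2.46, 2.75-fold (log2 0.87, SE 0.06, limma adjusted p = 0.00255). The other 2 tested members of its family, Rgs9 and Rgs19, had 2.87 and 2.64 against 2.37 and 2.30, and 1.26 and 1.05 against 1.18 and 1.16, and were not called. Igfbp5, a secreted carrier of insulin-like growth factors, fell from 8.63 and 8.07 to 4.65 and 5.08, 1.72-fold lower (limma adjusted p = 0.0255). Igfbp4, another carrier, had 3.46 and 3.82 against 2.37 and 2.11 without a call (limma adjusted p = 0.216). In the next 4 genes, all called and grouped by known role after their values were seen, levels fell. Il13ra1, a chain of the interleukin receptor, went from 4.18 and 3.73 to 2.33 and 2.27; Adm, the vasodilator adrenomedullin, from 1.78 and 2.01 to 0.940 and 1.04. Appl2, an endosomal adaptor of receptor signalling, went from 3.80 and 3.51 to 1.83 and 1.89, and Ptpru, a receptor tyrosine phosphatase, from 2.05 and 1.90 to 1.35 and 1.24. Inpp4a, a phosphoinositide phosphatase, fell from 2.28 and 2.22 to 1.46 and 1.47, while Ippk, a kinase of inositol polyphosphates, rose from 2.57 and 2.28 to 4.27 and 4.61 (limma adjusted p = 0.0498 and 0.00738). Dab2ip, a Ras GTPase-activating protein, rose from 1.45 and 1.34 to 2.07 and 1.98. All 7 tested MAP kinase feedback genes, which dampen the kinase that induces them, were higher with 0 called and a median of 0.11; Dusp4 had 5.12 and 4.93 against 5.66 and 6.12. Of 16 tested cyclic AMP genes 8 were higher and 8 lower with 0 called, and among 11 immediate early genes Nr4a2 was the 1 call, with Jund at 14.8 and 14.2 against 18.4 and 17.5 (limma adjusted p = 0.311).

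Called genes of secreted, surface and matrix proteins went both ways; beyond the adhesion and matrix list they were grouped by known role after their values were seen. Ahsg and Fetub, neighbours on chromosome 16 that code for the fetuins, serum glycoproteins made mainly by liver, both rose. Ahsg went from 13.97 and 14.3 to 22.95 and 23.8, 1.65-fold (limma adjusted p = 0.0487), and Fetub 7.28 and 7.03 against 9.69 and 9.73, 1.36-fold (limma adjusted p = 0.0336). Hrg and Kng1, liver genes further along chromosome 16, stayed under 0.02 in these 4 libraries. Mfge8, a secreted bridge for the uptake of dying cells, rose from 2.69 and 2.74 to 5.44 and 5.09, 1.94-fold (limma adjusted p = 0.00332). Enpp2, autotaxin, which makes lysophosphatidic acid, rose from 0.887 and 0.864 to 1.72 and 1.91 (2.08-fold, limma adjusted p = 0.00642), and Olfm1, a secreted neuronal glycoprotein, from 4.68 and 4.49 to 6.76 and 6.66 (limma adjusted p = 0.0301). These were 3 of 15 tested adhesion and matrix genes, of which 7 were higher and 8 lower (median -0.01). That list too was chosen with earlier results known, and 0.617% of all tested genes were called. Sema4c, a transmembrane semaphorin, rose from 2.35 and 2.49 to 3.57 and 3.57. Cdhr1, a cadherin family member, rose from 2.42 and 2.25 to 3.70 and 3.95, and Amotl2, a junction protein that binds the Hippo effector Yap, from 1.01 and 0.961 to 1.83 and 1.92. On the lower side, Pglyrp1, a peptidoglycan-binding protein of innate defence, fell from 6.12 and 6.21 to 3.67 and 3.64, 1.69-fold lower (limma adjusted p = 0.00855). Tm4sf1, a tetraspan surface protein, fell from 4.01 and 3.58 to 2.28 and 2.39, and Mical2, an oxidase that takes actin filaments apart, from 3.52 and 3.53 to 2.47 and 2.45. Also lower were Pkdcc, a secreted kinase, from 3.07 and 3.32 to 1.99 and 1.92, the galactosyltransferase gene B4galt4 from 3.01 and 2.79 to 1.58 and 1.92, and the sulfotransferase gene Chst1 from 1.36 and 1.39 to 0.959 and 0.938.

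Lysosomal genes were lower for the most part while their regulator Tfeb rose. Of 25 tested lysosomal hydrolase and membrane genes 18 were lower and 7 higher (median -0.13), with 1 called and 10 lower against 1 higher at an unadjusted p under 0.05. The called member was Scarb2, a lysosomal membrane receptor, at 4.91 and 4.83 against 3.37 and 3.46 (1.43-fold lower, limma adjusted p = 0.0336). Arsg, a lysosomal sulfatase outside the list, fell from 1.499 and 1.45 to 0.560 and 0.626, 2.49-fold lower (limma adjusted p = 0.00791). Tfeb, the bHLH factor that activates lysosomal and autophagy genes, was weakly expressed and rose from 0.437 and 0.476 to 1.39 and 1.26, 2.89-fold (log2 1.35, SE 0.10, limma adjusted p = 0.00414). Tfe3 and Mitf, weakly expressed members of its family, were not called. Tfe3 had 0.790 and 0.777 against 0.885 and 0.868, and Mitf 0.495 and 0.454 against 0.431 and 0.472 (limma adjusted p = 0.626 and 0.911). Not called were Galns, a sulfatase, at 0.586 and 0.724 against 1.55 and 1.28, and Hexa, a hexosaminidase, at 7.49 and 6.90 against 5.61 and 5.42 (limma adjusted p = 0.0795 and 0.195). Of 19 tested autophagy genes 15 were higher and 4 lower (median 0.03) with 0 called; Atg9a, a vesicle protein of autophagosome formation, had 1.35 and 1.43 against 1.90 and 2.198 (limma adjusted p = 0.110).

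The detoxification genes Ephx1 and Gpx3 rose, and the steroid enzyme gene Akr1c14 fell. Ephx1, the microsomal epoxide hydrolase, went from 4.42 and 4.32 to 7.05 and 6.39, 1.54-fold (limma adjusted p = 0.0151). Gpx3, a secreted glutathione peroxidase, went from 3.29 and 3.18 to 4.81 and 4.57 (limma adjusted p = 0.0363). Ptgr1, which reduces prostaglandins and reactive aldehydes, went from 2.95 and 2.88 to 3.87 and 4.03, and Aldh1b1, a mitochondrial aldehyde dehydrogenase, from 1.41 and 1.36 to 1.89 and 1.94. The pseudogene Gstp-ps, called from 19.05 and 17.5 to 24.9 and 24.7, is a copy of the glutathione transferase genes Gstp1 and Gstp2, between which the counting could split reads. Gstp1 itself had 109 and 101 against 150 and 137, and Gstp2 101 and 92.6 against 136 and 124, without a call (limma adjusted p = 0.0603 and 0.0795). Of the 23 tested genes of oxidative defence 11 were higher and 12 lower (median 0.00), with Ephx1 and Gpx3 the 2 calls. Akr1c14, a hydroxysteroid dehydrogenase that acts on steroid hormones, fell from 1.62 and 1.62 to 0.542 and 0.598, 2.84-fold lower (log2 -0.74, SE 0.04, limma adjusted p = 0.00150). The near copies Akr1c12 and Akr1c13 had 0.149 and 0.125 against 0.102 and 0.119, and 0.331 and 0.299 against 0.329 and 0.383; the authors' counting could split reads between such copies.

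Among genes of chromatin and transcription calls were few, as they were among all tested genes (0.617%). Chd9, a chromatin remodeller of the CHD family, fell from 12.9 and 12.8 to 8.42 and 9.01, 1.47-fold lower (limma adjusted p = 0.0336). It was the 1 call among 22 tested SWI/SNF and CHD genes, of which 10 were higher and 12 lower (median -0.03). Creb3l1, a membrane-bound factor of the endoplasmic reticulum, fell from 1.32 and 1.38 to 0.734 and 0.721. Tent5a, a poly(A) polymerase that stabilises messages of secreted proteins, fell from 6.90 and 6.57 to 3.88 and 3.69, 1.78-fold lower (limma adjusted p = 0.0131). Nelfcd, a subunit of the complex that pauses RNA polymerase, rose from 6.19 and 5.95 to 7.87 and 8.24. The zinc finger gene Zfp750, an epidermal regulator, rose from 0.912 and 0.974 to 1.74 and 1.77 and another, Zfp275, from 2.36 and 2.28 to 3.30 and 3.43; all exonic bases of Zfp750 lie in the span of Tbcd. Sumo3, a ubiquitin-like modifier, rose from 5.19 and 5.36 to 6.96 and 7.11, and Parp16, an ADP-ribosyltransferase of the endoplasmic reticulum, from 0.802 and 0.764 to 1.44 and 1.43. The machinery of DNA methylation gave 0 calls among 11 tested genes, 5 higher and 6 lower, with 0 at an unadjusted p under 0.05. Dnmt1, the maintenance methyltransferase, had 11.9 and 11.1 against 11.5 and 11.9. Of 16 tested TET and base excision repair genes 11 were higher and 5 lower with 0 called and 2 at an unadjusted p under 0.05; Tet3, which oxidises methylcytosine, had 1.42 and 1.52 against 1.55 and 1.63, and Polb, the repair polymerase, 2.53 and 2.196 against 2.96 and 3.22 (limma adjusted p = 0.761 and 0.304). Tet1 and Tet2 were weakly expressed, at 0.313 and 0.325 against 0.275 and 0.334, and 0.494 and 0.520 against 0.467 and 0.494.

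**Figure D3:**
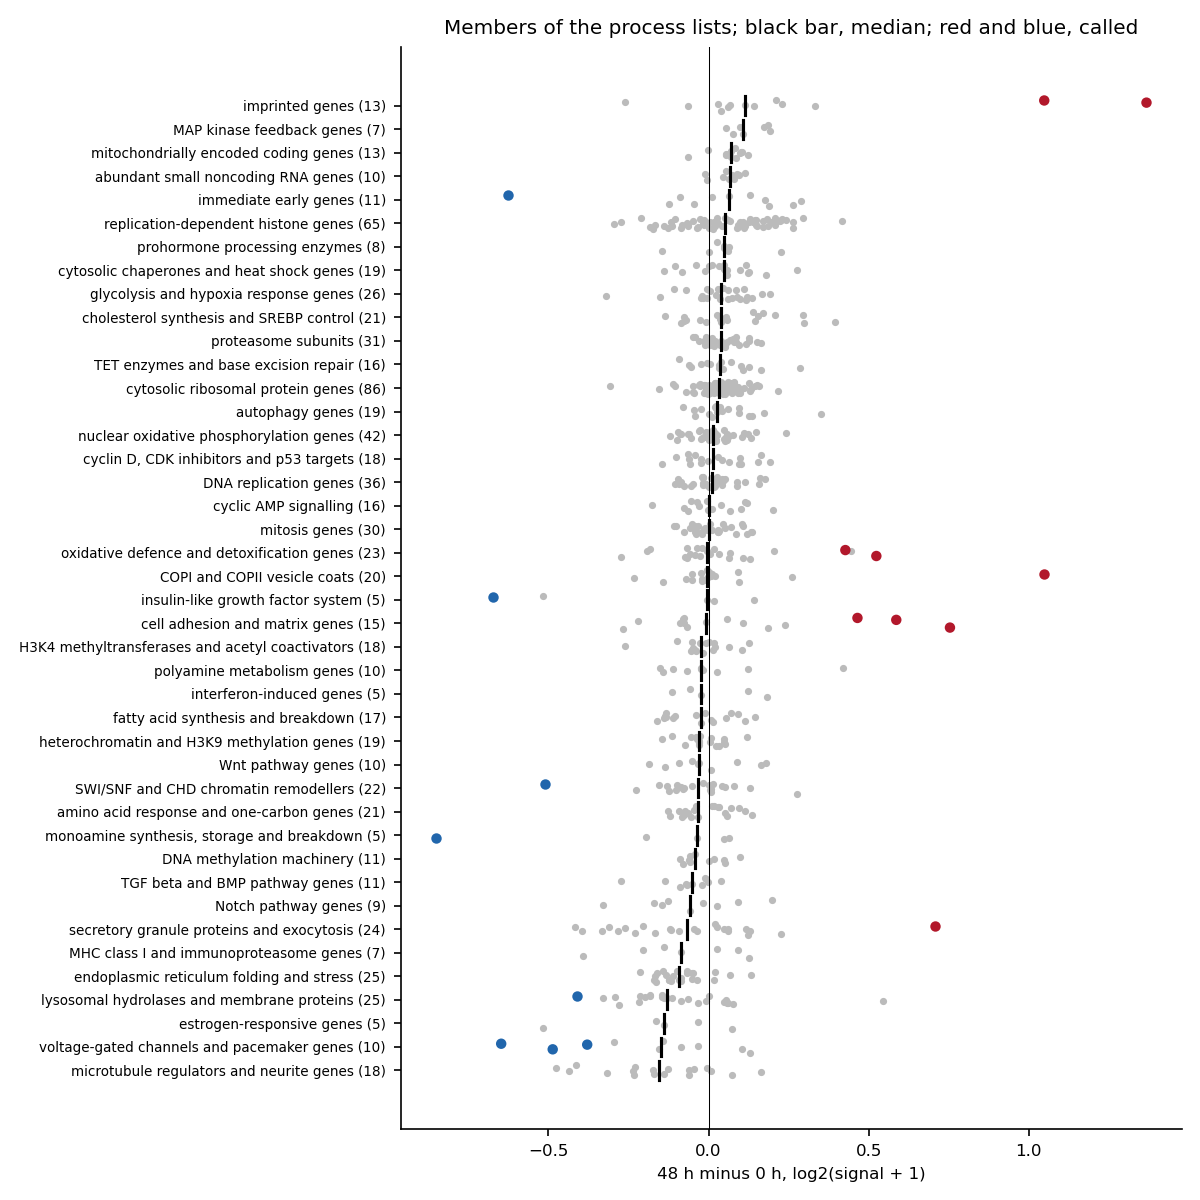
Change from 0 h to 48 h on the log2(signal + 1) scale of the tested members of the process lists with at least 5 tested genes (number in brackets), with the list median as a black bar and called genes in red (higher) or blue (lower). Medians run from 0.11 for imprinted genes to -0.16 for microtubule and neurite genes, and calls stand as single genes in their lists except among channels, imprinted, detoxification and matrix genes. The lists were chosen with earlier results of these data known, so several calls in a list are no independent support for it. Of all tested genes 0.617% were called, and the called genes Mest and Copg2 share 912 exonic bases.

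Most processes examined held no called gene on the second day. With 0.617% of all tested genes called, lists of these lengths would mostly hold none. Cell cycle genes gave 0 calls, and 0 in either list had an unadjusted p under 0.05. Of 36 tested DNA replication genes 21 were higher and 15 lower (median 0.01), and of 30 mitosis genes 15 and 15 (median 0.00). Pcna, the polymerase clamp, had 40.1 and 39.8 against 41.2 and 38.9. Of 25 tested genes of folding and stress in the endoplasmic reticulum 21 were lower and 4 higher (median -0.09), with 0 called and 3 at an unadjusted p under 0.05; Ern1, a stress sensor, had 2.50 and 2.55 against 1.95 and 2.14, and Xbp1, its target, 16.8 and 16.7 against 15.1 and 14.6 (limma adjusted p = 0.209 and 0.419). Microtubule and neurite genes were lower in 15 of 18 tested, with a median of -0.16, 0 called and 9 lower at an unadjusted p under 0.05. App, the amyloid precursor, had 46.3 and 45.4 against 34.2 and 34.0, and Gap43, of growth cones, 7.33 and 6.45 against 4.76 and 4.89 (limma adjusted p = 0.0518 and 0.153). Tubb3, a neuronal tubulin, differed between the 0 h libraries themselves, at 13.8 and 26.3, against 13.5 and 13.3. Neuronal markers, 8 tested with 2 higher and 6 lower, summed to 62.0 to 71.9 at 0 h and 54.2 to 55.5 at 48 h; their part in these lists was not tested.

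Cholesterol synthesis genes were higher in 14 of 21 tested (median 0.04) with 0 called and 5 at an unadjusted p under 0.05, all higher. Stard4, a sterol carrier, had 3.96 and 3.82 against 5.71 and 5.16, and Dhcr7, the last step of synthesis, 5.57 and 5.38 against 7.16 and 6.76 (limma adjusted p = 0.170 and 0.278). Estrogen-responsive genes were lower in 4 of 5 tested with 0 called (median -0.14), Igfbp4 the furthest. Of these 5 genes 3 had an unadjusted p under 0.05, all lower. Of 11 tested TGF beta and BMP genes 10 were lower (median -0.05, 0 called); Id1, a direct target, had 5.20 and 5.30 against 3.96 and 4.40 (limma adjusted p = 0.266). Notch genes were 3 higher and 6 lower, with Dner, a ligand, at 6.33 and 5.54 against 4.47 and 4.55 (limma adjusted p = 0.118). Odc1, the entry enzyme of the polyamine pathway, had 7.58 and 7.36 against 10.2 and 10.4 (limma adjusted p = 0.278). The antigen presentation gene H2-T23 had 4.11 and 3.82 against 2.89 and 2.67 (limma adjusted p = 0.0795), and interferon-induced genes were 2 higher and 3 lower of 5 tested. Housekeeping lists gave 0 calls and had more members higher than the 52.0% of all tested genes, by small medians: 66 of 86 ribosomal protein genes (median 0.03), 24 of 31 proteasome genes (median 0.04), 26 of 42 nuclear oxidative phosphorylation genes (median 0.01) and 11 of 13 mitochondrially encoded genes (median 0.07). Under quantile normalization the oxidative phosphorylation median turned to 0.00 on the lower side. Other lists with 0 calls were glycolysis and hypoxia (17 of 26 higher), cytosolic chaperones (14 of 19), replication-dependent histones (41 of 65), abundant small noncoding RNA (8 of 10), cyclin D, CDK inhibitor and p53 genes (9 of 18), amino acid response (10 of 21), fatty acid metabolism (7 of 17), Wnt (4 of 10), heterochromatin (8 of 19) and H3K4 methyltransferases and coactivators (7 of 18).

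Among weakly expressed genes 39 of 8315 were called, 0.469%, with 19 higher (0.229%) and 20 lower (0.241%) and 786 at an unadjusted p under 0.05. Ratios of means ran from 1.69 to 30.7 among the higher genes, 13 of 19 at 2-fold or more, and from 1.67 to 5.66 among the lower, 13 of 20. Beside Oacyl, Sytl2, Tfeb, Pcsk2, its antisense gene and Sv2c, the 10 with the largest rise on the log2(signal + 0.1) scale were Cilp, Gm572, Mybpc1 and Pde2a. Of the 39 calls 7 had a mean under 0.1 in 1 group and passed the filter only through the other, Oacyl, Cilp, Gm572 and Mybpc1 at 0 h and Mgll, Gm28710 and Ccdc154 at 48 h. Cilp, a cartilage matrix protein, went from 0.0458 and 0.0622 to 0.451 and 0.364 (7.54-fold, limma adjusted p = 0.00587), and Mybpc1, a myosin-binding protein of slow muscle, from 0.0616 and 0.0456 to 0.269 and 0.244 (4.78-fold, limma adjusted p = 0.0336). Mybpc1 was not on the myogenic marker list, whose 12 genes showed 0 calls. Pde2a, a phosphodiesterase of cyclic nucleotides, went from 0.455 and 0.348 to 0.941 and 0.849, and 64.3% of its exonic bases lie in exons of Gm45837. Gm572, an uncharacterised gene, went from 0.0593 and 0.0584 to 0.333 and 0.452.

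The 10 weakly expressed genes with the largest fall on that scale began with Ccdc154, a coiled-coil gene, which went from 0.533 and 0.467 to 0.0805 and 0.0963, 5.66-fold lower (limma adjusted p = 0.0362). Astn2, a neuronal membrane protein of cell migration, fell from 0.530 and 0.486 to 0.130 and 0.170 (3.39-fold lower, limma adjusted p = 0.0433). Mgll, which breaks down monoacylglycerols, fell from 0.235 and 0.272 to 0.0678 and 0.0540, and Plpp3, a lipid phosphate phosphatase, from 0.466 and 0.461 to 0.155 and 0.176. In the case of Plpp3 the known substrates include lysophosphatidic acid, the product of Enpp2. Olfml3, a secreted olfactomedin-like protein, fell from 0.488 and 0.542 to 0.162 and 0.205, and the epithelial genes Dmkn and Fxyd3 from 0.714 and 0.626 to 0.332 and 0.271 and from 0.473 and 0.505 to 0.209 and 0.206. Fxyd3 shares 42.5% of its exonic bases with Lgi4. The remaining 3 were noncoding or uncharacterised genes, Gm28710, Gm38655 and 4930419G24Rik, the last within the span of Pex5l. The weakly expressed calls numbered 0 with either 0 h library or 48 h replicate 1 left out, and 19, all higher, without 48 h replicate 2. With each of the 8 libraries left out in turn, 10 of the 39 kept their call in 0 fits, among them Pcsk2os2, Pde2a, Dmkn, Mgll, Gm38655 and Gm28710, 15 in 2 fits, 9 in 4, and 5, namely Oacyl, Cilp, Sytl2, Tfeb and Pcsk2, in 5.

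**Figure D4:**
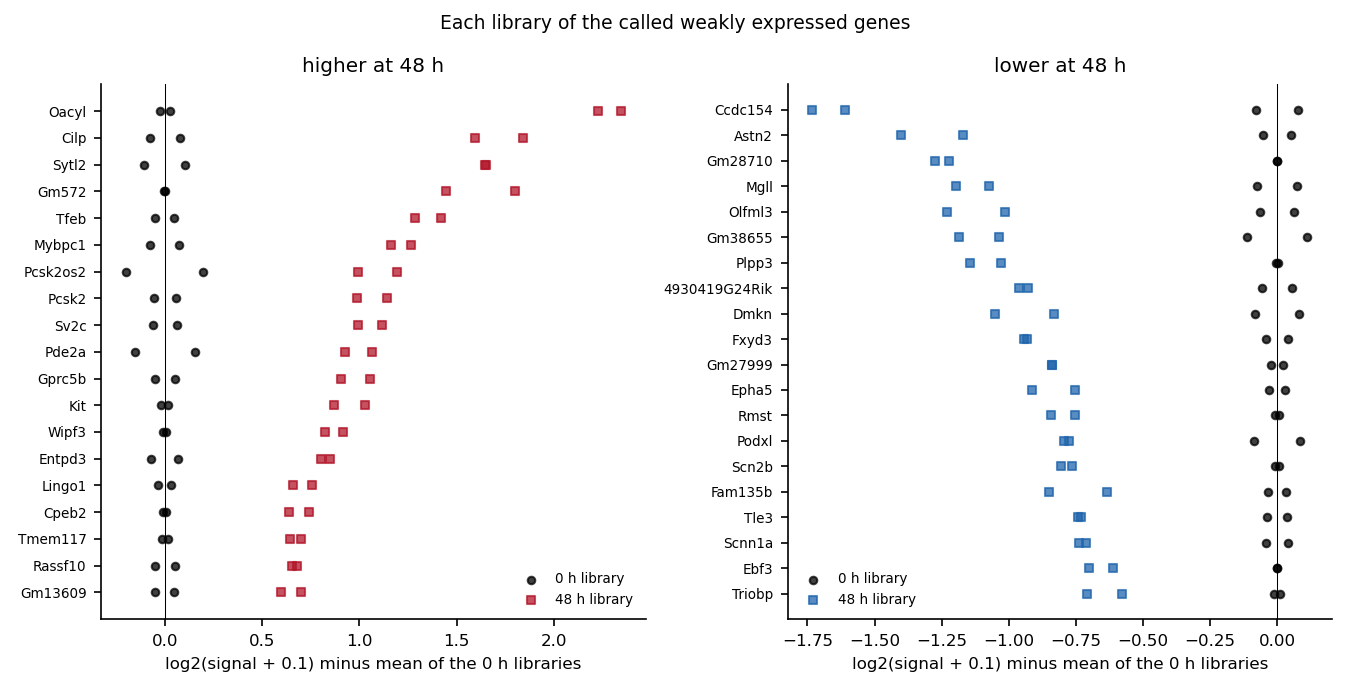
Each library of the 39 called weakly expressed genes, as log2(signal + 0.1) minus the mean of the 0 h libraries, with 0 h as black circles and 48 h as coloured squares. Oacyl lies furthest to the higher side at 2.28 and Ccdc154 furthest to the lower side at -1.67.

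The remaining calls belong to no list. Ank, a transporter that exports pyrophosphate and its precursors, rose from 3.74 and 3.86 to 6.01 and 6.53, 1.65-fold (limma adjusted p = 0.00834), with 88.3% of its exonic bases in the span of other genes. The uncharacterised gene 2210407C18Rik rose from 4.34 and 4.29 to 8.47 and 7.56, and Lurap1l, a leucine-rich adaptor, from 0.835 and 0.705 to 1.3001 and 1.32. Dbpht2 fell from 3.22 and 3.02 to 2.23 and 2.35.

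The second day was set between the first and the third. Between 24 h and 48 h limma called 0 of 9568 genes (0%), with 760 at an unadjusted p under 0.05, and between 48 h and 72 h again 0 (0%), with 576. Without 24 h replicate 2 the first of these contrasts gave 1 call. Among weakly expressed genes the counts were 0 and 0 as well, with 546 and 489 at an unadjusted p under 0.05. Absence of a call does not show that levels were equal. At 24 h all 31 higher and all 28 lower calls already lay beyond both 0 h libraries, in the direction of the 48 h change. Of the weakly expressed calls 19 of 19 higher and 19 of 20 lower did so. The share of all tested genes that did so was not counted. The calls were chosen against the same 0 h libraries, with the 24 h libraries in the spread, which favours such counts. No conclusion on the timing of the response is drawn from them. The levels of called genes followed several courses. Mfge8 had means of 2.71, 3.81, 5.27 and 6.90 at 0, 24, 48 and 72 h, and Rgs4 0.886, 1.497, 2.44 and 3.51, each with 48 h libraries between those of 24 h and 72 h. Igfbp5 descended in a like manner, at 8.35, 6.35, 4.86 and 4.32. For other genes most of the distance was present at 24 h: Ippk had 2.42, 4.79, 4.44 and 4.43, and Cacna2d1 12.6, 9.53, 9.48 and 9.69. Tent5a and Nr4a2 were lowest at 24 h, with 6.74, 3.24, 3.78 and 3.82, and 3.89, 1.80, 2.17 and 2.33. Ddc had 12.9, 7.27, 6.71 and 4.80, so that its 24 h and 48 h values lay close and 72 h lower. Pcsk2 had 0.309, 0.606, 0.756 and 0.833, and Oacyl 0.0150, 0.306, 0.460 and 0.627. The comparisons with 0 h share their control libraries, and these levels are given as a description.

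**Figure D5:**
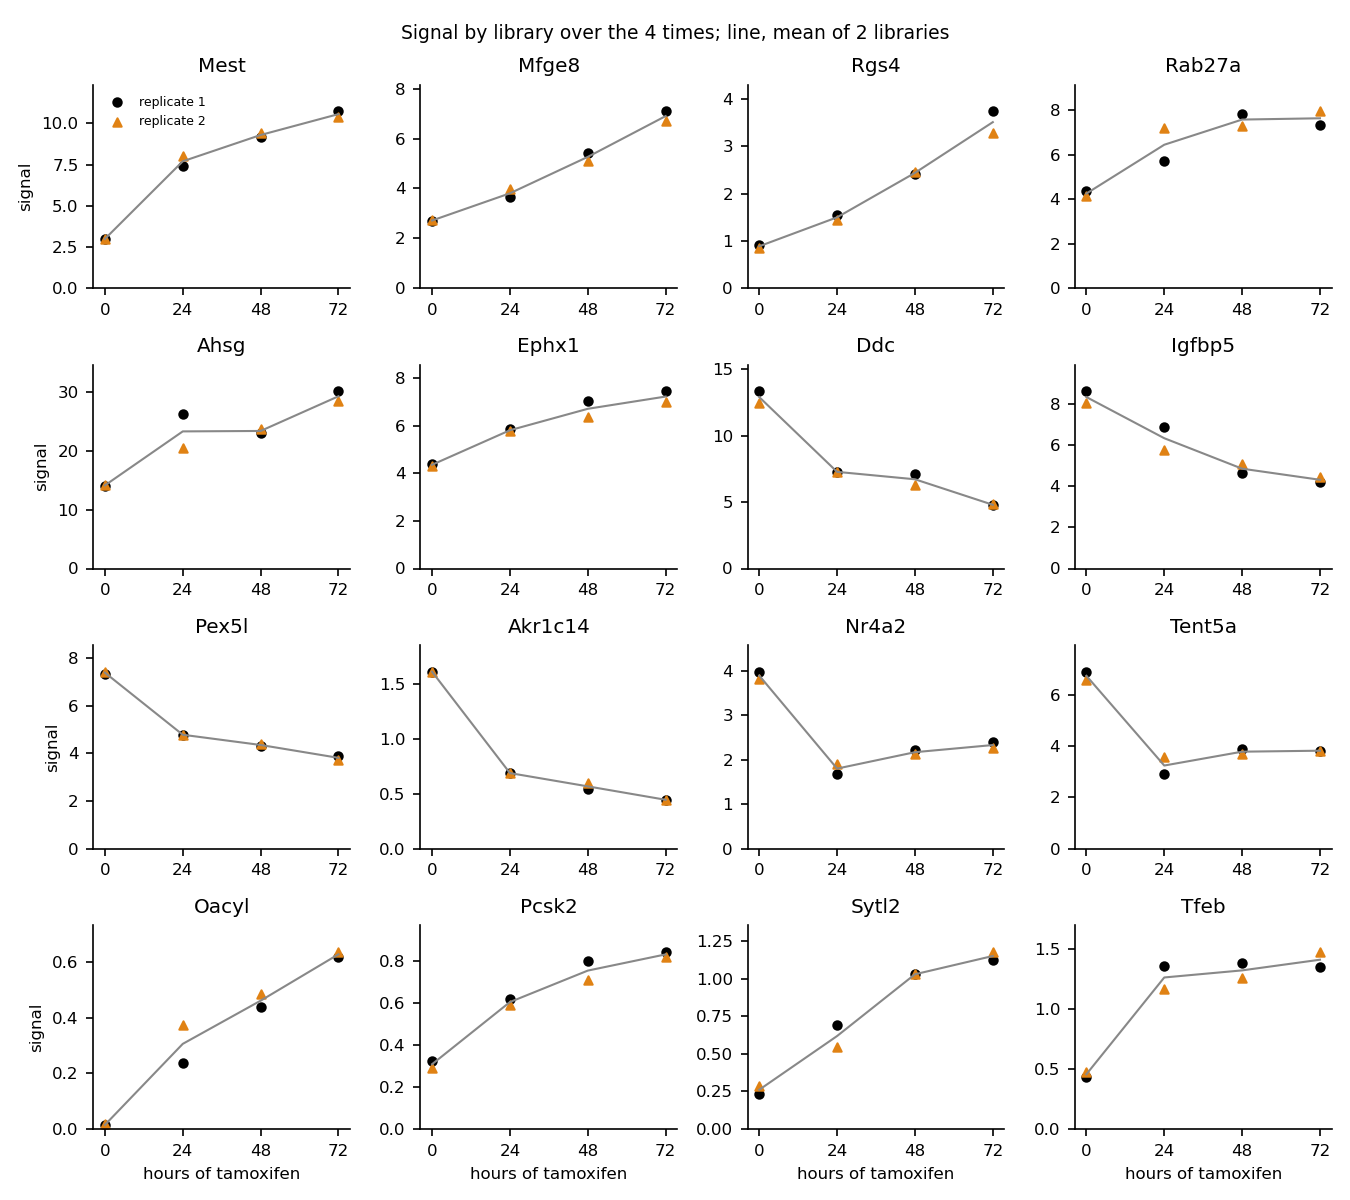
Signal of 16 called genes in each of the 8 libraries over hours of tamoxifen, replicate 1 as circles, replicate 2 as triangles, the line through the mean of 2 libraries and each vertical axis starting at 0. Mfge8, Rgs4 and Oacyl climb through 72 h, Tfeb is level from 24 h, and Tent5a and Nr4a2 are lowest at 24 h.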

How the data were processed

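RNA was extracted by column and depleted of ribosomal RNA, per the labels' protocols; the molecule field of the labels names genomic DNA, and the values were read as RNA. The authors deposited 1 signal per gene and library, read from the values and columns as normalized mean coverage over merged exons. Per the submitters' processing notes, the tools were HISAT2 2.2, SAMtools 1.12 and deepTools 3.5, and the genome builds mm10 and GRCm38. How values were scaled, the depth, the counting tool, its strand setting and its annotation were not given in the sources used here. Counts and counting intervals are therefore not printed.

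Groups and replicate numbers came from sample titles. A limma 3.58.1 fit (R 4.3.3) of log2(signal + 1) used group as the only term, an intensity trend and all 8 libraries (4 residual degrees of freedom), for genes with a mean of at least 1 over the 0 h and 48 h libraries. Weakly expressed genes came from a like fit of log2(signal + 0.1) over all genes with a mean of at least 0.1. Benjamini-Hochberg adjustment ran over all genes of each fit, with a threshold of 0.05. A fold on either log scale understates the change of low genes, so ratios of means are given too. Tested on simulated data for 9568 genes at 48 h against 0 h, the fit recovered 28, 46, 50 and 50 of 50 genes changed 1.25, 1.5, 2 and 3-fold on the log scale, with 11 false calls.

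Calls among tested genes are named, apart from results that are not reported here, with the 10 highest and 10 lowest weakly expressed calls, 8 marker genes of Pax7 and pituitary cells and up to 3 members per process list (no set test was run). The comparison, the 52 gene lists and their members were chosen with earlier results of these data known. Alternatives were the pseudocount, filters, the 2 groups alone, quantile and trimmed-mean scaling, the replicate number as a block, no trend, overlapping genes left out and each library left out. Exon overlaps were computed from the exons in the files, and promoter windows and microRNAs came from RefSeq tables (GRCm38.p6).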

Additional observations from a re-analysis of the deposited data

Results flagged for a closer look

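In 2 named genes every library of one time lay on one side of both 0 h libraries and every library of another time on the other side. Pomc had means of 629 at 0 h, 544 at 48 h and 670 at 72 h, with 48 h libraries at 548 and 539 and 72 h libraries at 662 and 679. The 72 h against 48 h contrast of limma gave a log2 change of 0.30 with adjusted p = 0.758. Hsp90ab1, a cytosolic chaperone gene, had means of 92.6 at 0 h, 105 at 48 h and 89.4 at 24 h. Its 48 h libraries stood at 114 and 96.9, and the 48 h against 24 h contrast gave a log2 change of 0.23 with limma adjusted p = 0.616. Neither difference passed the threshold.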

How the results depend on the processing

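Calls at 48 h against 0 h, 59 in all and 39 among weakly expressed genes, numbered 5 and 2 with no filter on low values (37675 genes tested), where 4 and 2 of the original calls remained. A mean of at least 5 left 2454 genes and 22 calls. The 0 h and 48 h libraries alone (2 groups) gave 113 and 22. Replicate number as a block gave 31 calls, of which 30 were among the 59, and 11 of the weakly expressed ones. Rab27a, Ahsg, Gpx3 and Chd9 were among the genes that lost their call. Deviations of same-numbered libraries correlated at 0.33 between 0 h and 48 h, 0.18 between 0 h and 24 h and 0.39 between 24 h and 48 h. Pairs with 72 h gave -0.02 to 0.09. As they were not above 0.1 in every pair, the numbers were not taken to pair libraries. Quantile normalization gave 22 higher and 26 lower. Leaving out 1 library at a time gave 3 to 100 calls, 0 to 37 among weakly expressed genes, 0 to 1 for 48 h against 24 h and 0 for 72 h against 48 h; a group left with 1 library is assumed to vary like the others. Of the 196 single genes followed and reported here, 8 turned direction, and 0 of these were called. Pcsk1, at 6.8e-05, gave -0.041 with quantile normalization and -0.00271 with trimmed-mean rescaling. With 1 library left out, log2 changes ran from -0.0676 to 0.0678 for Pcsk1, -0.00426 to 0.247 for mt-Nd2, -0.0627 to 0.0814 for Rgs19, -0.00914 to 0.137 for Furin, -0.226 to 0.0452 for Mbd2, -0.0137 to 0.189 for Snora73b, -0.113 to 0.0624 for Megf11 and -0.111 to 0.943 for H2ac6. The cause of these shifts was not tested. Read depth is unknown, so what limits low genes cannot be stated in counts.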
